A study of Mus musculus with 9 samples.

Results

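The genes described here are Met, the caveolin genes Cav1 and Cav2, and 7 of their neighbors on proximal mouse chromosome 6: Tes, Capza2, St7, Wnt2, Asz1, Cftr and Cttnbp2. They were chosen from a measured value and from what is known of the model: Cav2 spanned 122 to 5729 CPM among these tumors, and gain of Met is known from Brca1-deficient mouse tumors. These are 10 of the 35275 genes in the count table, and all 10 were among the 15821 genes with enough counts to be tested. Because the spread of Cav2 chose the list, the Cav2 values are a description with no test, and that its neighbors vary beside it is described and not tested. Dixon's outlier limit, in the closing section, was applied to each gene alone and is a description there too.

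RNA-seq was done on 9 mammary gland tumors that arose in Brca1Co/Co;MMTV-Cre;p53+/- mice, 3 tumors in each of 3 groups. In this model the MMTV promoter drives Cre, which removes the conditional Brca1 alleles in cells where that promoter is active, and 1 p53 allele is missing throughout the animal. The saline group received saline, the TLZ group free Talazoparib given i.v. and the NanoTLZ group Talazoparib in nano-liposomes, both drugs at 0.33 mg/kg, for 5 doses at 3 doses per week, started once a tumor measured 4 to 5 mm. Talazoparib inhibits and traps PARP, and the comparisons ask how free and liposomal drug change tumor transcripts. The age of each animal is not given in the sources used here. Total counts were between 17538380 and 21194980 per tumor, with a median of 19747343. Levels are counts per 1000000 counts (CPM) with library sizes scaled by trimmed-mean (TMM) factors. The tumors were bulk tissue, so fewer cells of a type and less RNA per cell cannot be told apart. The luminal markers Epcam, Krt8, Krt18 and Cdh1 were present in every tumor, with Epcam at 1182, 1128 and 790.4 CPM in saline tumors 1 to 3, 659, 1368 and 604 CPM in TLZ tumors 1 to 3, and 933, 1126 and 1163 CPM in NanoTLZ tumors 1 to 3.

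MET is the receptor tyrosine kinase for hepatocyte growth factor, and its signal promotes growth, survival and motility of epithelial cells. Caveolin-1 and caveolin-2 are membrane proteins that build caveolae, small pits of the plasma membrane. Their genes lie side by side, with Met next to them, between the cytoskeletal genes Tes and Capza2.

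In GENCODE M21 on GRCm38, the build named by the labels as mm10, the order along the chromosome was Tes (ENSMUSG00000029552, chr6:17065149-17105828, plus strand), Cav2 (ENSMUSG00000000058, chr6:17281185-17289115, plus strand), Cav1 (ENSMUSG00000007655, chr6:17306335-17341452, plus strand), Met (ENSMUSG00000009376, chr6:17463800-17573980, plus strand), Capza2 (ENSMUSG00000015733, chr6:17636234-17666972, plus strand), St7 (ENSMUSG00000029534, chr6:17692933-17943025, plus strand), Wnt2 (ENSMUSG00000010797, chr6:17988940-18030585, minus strand), Asz1 (ENSMUSG00000010796, chr6:18050964-18109061, minus strand), Cftr (ENSMUSG00000041301, chr6:18170687-18322768, plus strand) and Cttnbp2 (ENSMUSG00000000416, chr6:18366478-18514843, minus strand). The 10 genes span 1.45 Mb. All are protein-coding.

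The promoters of Cav2, Cav1 and Met are shown because these genes were low in the same 2 tumors. Each is 250 bases before to 50 after a gene start, from RefSeq on GRCm38.p6, plus strand. Capitals mark TGANTCA, an AP-1 type motif, and GGGCGG, a GC box, on either strand. Matches can overlap, and the 2 GC box matches of Cav2 share a base. The Cav2 promoter lies at chr6:17280935-17281234, that of Cav1 at chr6:17306085-17306384 and that of Met at chr6:17463707-17464006.
Cav2: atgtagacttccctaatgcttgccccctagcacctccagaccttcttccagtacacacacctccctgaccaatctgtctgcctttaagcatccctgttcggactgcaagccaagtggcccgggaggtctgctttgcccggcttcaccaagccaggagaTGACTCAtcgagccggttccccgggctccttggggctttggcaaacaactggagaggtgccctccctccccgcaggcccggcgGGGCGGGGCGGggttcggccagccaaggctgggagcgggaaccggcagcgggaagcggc
Cav1: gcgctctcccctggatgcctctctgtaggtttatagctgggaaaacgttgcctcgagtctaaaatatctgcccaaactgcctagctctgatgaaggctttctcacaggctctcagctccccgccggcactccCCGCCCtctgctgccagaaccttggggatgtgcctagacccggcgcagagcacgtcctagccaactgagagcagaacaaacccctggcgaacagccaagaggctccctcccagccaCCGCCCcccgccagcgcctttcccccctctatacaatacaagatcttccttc
Met: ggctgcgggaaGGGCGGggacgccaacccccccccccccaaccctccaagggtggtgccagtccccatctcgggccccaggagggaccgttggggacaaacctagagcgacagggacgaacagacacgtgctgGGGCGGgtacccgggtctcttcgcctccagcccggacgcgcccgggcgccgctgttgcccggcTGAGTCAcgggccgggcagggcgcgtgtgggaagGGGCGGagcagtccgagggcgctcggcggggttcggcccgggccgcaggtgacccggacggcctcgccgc

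All 10 genes had a promoter entry, 13 entries in all. TGANTCA was found in the promoters of 2 of the 10 genes, Cav2 and Met, and in 7.81% of all 32851 promoters of this length. GGGCGG was found in 9 of the 10, all but St7, and in 35.7% of all promoters. CACGTG was found for Met and St7 (7.15% of all promoters), CCAAT for 4 of the 10 (37.4%) and TATAAA for Cav1 and St7 (13.6%), both strands searched. A match is a description, not a site or a cause.

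Met was at 14422, 9018 and 86.5 CPM in saline tumors 1 to 3, 5219, 86.6 and 2671 CPM in TLZ tumors 1 to 3, and 6779, 7299 and 6971 CPM in NanoTLZ tumors 1 to 3. Saline tumor 3 and TLZ tumor 2 were low, and the other 7 tumors were high, across all 3 groups. The lowest of those 7, TLZ tumor 3, was 30.8-fold above the second-lowest tumor, and the highest, saline tumor 1, was 166-fold above it. Per kilobase of exon, Met ranked 6 of all genes in saline tumor 1 and 4707 in saline tumor 3. Group levels were 7842 ± 7239.8 CPM in saline, 2659 ± 2566 CPM in TLZ and 7016 ± 263 CPM in NanoTLZ tumors (SD, n = 3 per group). The saline and TLZ groups each held a low tumor, so their SDs were close to their means. Over all tested genes, the mean rank correlation of each tumor with the other 8 was 0.926, 0.941 and 0.867 in saline tumors 1 to 3, 0.933, 0.916 and 0.941 in TLZ tumors 1 to 3, and 0.946, 0.947 and 0.943 in NanoTLZ tumors 1 to 3, lowest in saline tumor 3 and next lowest in TLZ tumor 2. Its part in the levels of Met was not tested.

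Cav2 was at 5729, 3789 and 128 CPM in saline tumors 1 to 3, 2772, 122 and 1451 CPM in TLZ tumors 1 to 3, and 2408, 3005 and 2373 CPM in NanoTLZ tumors 1 to 3. The same tumors were low and high as for Met. The third-lowest tumor was 11.3-fold above the second-lowest. Cav1, which encodes the main structural protein of caveolae, was at 396, 479 and 77.7 CPM in saline tumors 1 to 3, 1206, 90.4 and 1082 CPM in TLZ tumors 1 to 3, and 1592, 1001 and 795 CPM in NanoTLZ tumors 1 to 3. Its low tumors were again saline tumor 3 and TLZ tumor 2, but its order among the high tumors differed from that of Cav2: saline tumors 1 and 2, highest for Cav2, were below the other 5 high tumors for Cav1. Group levels of Cav1 were 317 ± 212 CPM in saline, 793 ± 611 CPM in TLZ and 1129.7 ± 414 CPM in NanoTLZ tumors (SD, n = 3 per group).

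**Figure D1:**
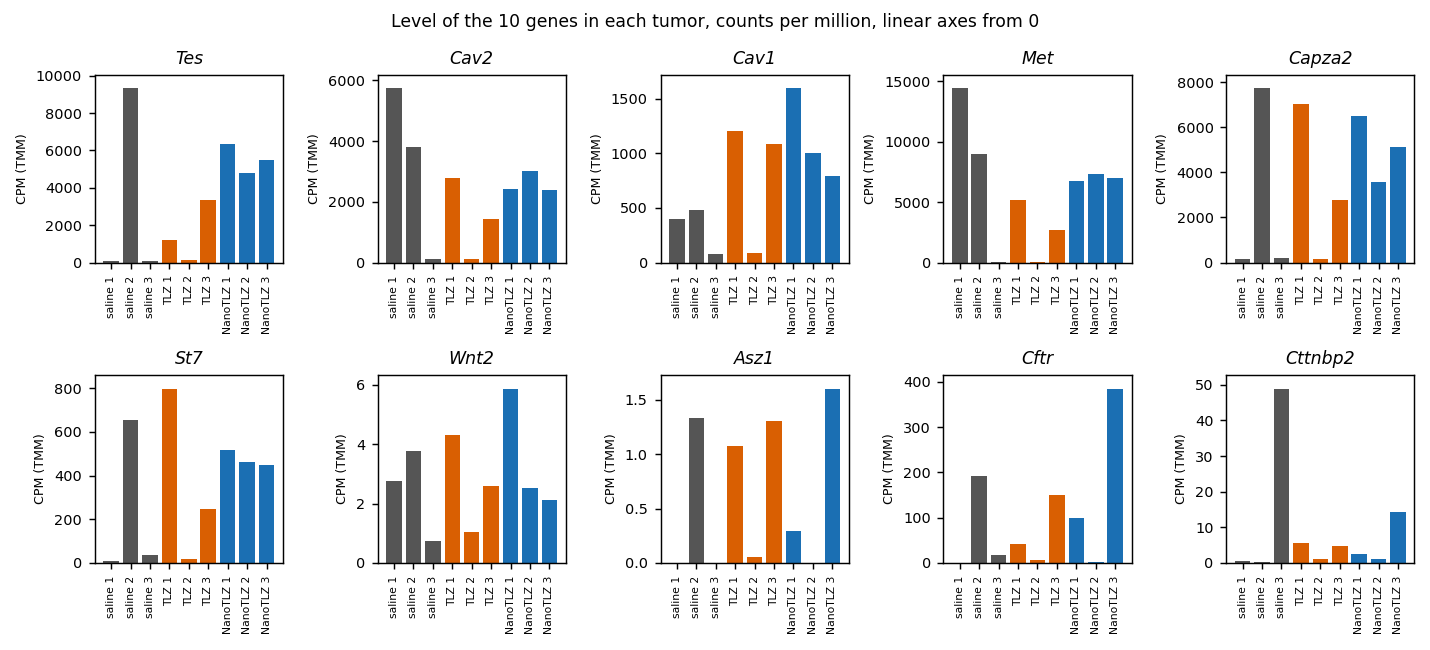
Level of each of the 10 genes in each of the 9 tumors, in CPM on linear axes that start at 0, 1 bar per tumor, gray for saline, orange for TLZ and blue for NanoTLZ. Met, Cav2 and Cav1 are low in saline tumor 3 and TLZ tumor 2, and Tes, Capza2 and St7 are low in saline tumor 1 as well.

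Tes encodes a LIM domain protein of focal adhesions. It was at 99, 9313 and 96.5 CPM in saline tumors 1 to 3, 1216, 146 and 3373 CPM in TLZ tumors 1 to 3, and 6367, 4778 and 5476 CPM in NanoTLZ tumors 1 to 3. Here saline tumor 1, highest for Met, was low together with saline tumor 3 and TLZ tumor 2. Capza2, a subunit of the protein that caps actin filaments, was at 150.4, 7717 and 189.8 CPM in saline tumors 1 to 3, 7011, 176 and 2778 CPM in TLZ tumors 1 to 3, and 6512, 3585 and 5142 CPM in NanoTLZ tumors 1 to 3. It was low in the same 3 tumors as Tes. St7, which lies beyond Capza2, was at 9.1, 654 and 35.1 CPM in saline tumors 1 to 3, 797, 16.5 and 247 CPM in TLZ tumors 1 to 3, and 515, 463 and 448 CPM in NanoTLZ tumors 1 to 3. It followed Tes and Capza2, with saline tumor 1 lowest.

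Wnt2, a secreted Wnt ligand, stayed low at 2.75, 3.76 and 0.734 CPM in saline tumors 1 to 3, 4.31, 1.04 and 2.6 CPM in TLZ tumors 1 to 3, and 5.87, 2.51 and 2.12 CPM in NanoTLZ tumors 1 to 3. Its highest tumor was 5.65-fold above the second-lowest, and in no tumor did it reach 8-fold on the log2 CPM scale. Asz1, a germ cell gene of the piRNA pathway, was at 0, 1.33 and 0 CPM in saline tumors 1 to 3, 1.07, 0.0547 and 1.3 CPM in TLZ tumors 1 to 3, and 0.289, 0 and 1.6 CPM in NanoTLZ tumors 1 to 3. Between 0 and 31 counts per tumor lay behind these values, so no fold is given. A count of 0 allows up to 3 counts, for counting error only, or 0.1519 CPM in saline tumor 1, 0.1415 CPM in saline tumor 3 and 0.1711 CPM in NanoTLZ tumor 2 before TMM scaling.

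Cftr, the chloride channel of epithelia, was at 0.172, 192 and 18.5 CPM in saline tumors 1 to 3, 42.2, 6.51 and 149.6 CPM in TLZ tumors 1 to 3, and 99.1, 2.07 and 385 CPM in NanoTLZ tumors 1 to 3. Saline tumor 1 had 3 counts and NanoTLZ tumor 2 had 38, although both were high for Met. Cttnbp2, which encodes a cortactin-binding protein, was at 0.572, 0.143 and 48.9 CPM in saline tumors 1 to 3, 5.62, 1.2 and 4.82 CPM in TLZ tumors 1 to 3, and 2.41, 1.09 and 14.4 CPM in NanoTLZ tumors 1 to 3. It was highest in saline tumor 3, a tumor that was low for Met. The highest-minus-lowest range over the 9 tumors was 7.38 log2 units for Met, 10.46 for Cftr and 2.84 for Wnt2, beside a median of 1.72 over all tested genes. Ranges at least that of Met were seen in 0.803% of tested genes.

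The 10 genes took 3.11% of all counts in saline tumor 2 (95% Wilson interval 3.099 to 3.114%) and 0.0633% in TLZ tumor 2 (0.06217 to 0.06445%). The intervals cover counting error only. Met alone took 1.28% of the counts of saline tumor 1.

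To describe which genes were high in which tumor, a gene was counted as raised in a tumor where its log2 CPM (prior count 2) was at least 8-fold above its second-lowest tumor. This rule was chosen after the values were seen, with the 2 low tumors in view, and carries no test. The second-lowest tumor differs by gene, being saline tumor 1 for Tes and Cttnbp2 and NanoTLZ tumor 2 for Cftr. Of all tested genes 10.7% were raised in any tumor and 0.512%, or 81 genes, in 5 or more tumors. Of the 10 genes, 7 were raised in 5 or more: Met and Cav2 in 7 tumors, Tes, Capza2, St7 and Cftr in 6, and Cav1 in 5. Asz1 was raised in 4 tumors, over a reference tumor with 0 counts, so that this depends on the prior count. Cttnbp2 was raised in 3 tumors and Wnt2 in 0. Counted over genes and tumors, 50 of 90 pairs met the rule, 55.6% beside 2.15% of pairs over all tested genes. With the third-lowest tumor as reference 27 pairs met it, 29 did without saline tumor 3, and 30 did without TLZ tumor 2. Cav2, whose spread chose the list, gave 7 of the 50 pairs. It is included in all of these counts and in those by tumor, which are therefore a description only.

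By tumor, 2 of the 10 genes were raised in saline tumor 1 beside 1.86% of all tested genes, 7 of the 10 genes were raised in saline tumor 2 beside 1.64% of all tested genes, 2 of the 10 genes were raised in saline tumor 3 beside 3.9% of all tested genes. In the TLZ group, 9 of 10 were raised in tumor 1 beside 2.62%, 0 of 10 were raised in tumor 2 beside 2.92%, 8 of 10 were raised in tumor 3 beside 1.4%. In the NanoTLZ group, 7 of 10 were raised in tumor 1 beside 1.81%, 6 of 10 were raised in tumor 2 beside 1.19%, 9 of 10 were raised in tumor 3 beside 2.02%. The 2 raised in saline tumor 1 were Cav2 and Met, and the 2 raised in saline tumor 3 were Cftr and Cttnbp2. In saline tumor 3 Cftr was at 18.5 CPM, below its median of 42.2 CPM over the 9 tumors. It counted as raised there over 2.07 CPM in NanoTLZ tumor 2.

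The raised genes formed stretches with different ends in different tumors. In these counts protein-coding genes reaching 30 CPM in any tumor were followed along the chromosome, a limit also set after the values were seen. Genes under it, such as Tfec, Wnt2 and Asz1, were passed over inside a stretch whether raised or not. In NanoTLZ tumor 2 the stretch ran from Tes to St7. In NanoTLZ tumor 1 it ran from Tes to Cftr and in TLZ tumor 3 from Mdfic to Cftr, in both with Lsm8 raised beyond a Cttnbp2 that was not. In TLZ tumor 1 and NanoTLZ tumor 3 it ran from Mdfic to Lsm8 over 10 genes. Cttnbp2 was at 3.09 log2 units in TLZ tumor 1 and 2.87 in TLZ tumor 3, on either side of 8-fold. In saline tumor 2 it ran from Mdfic to Cftr, with Cav1 under 8-fold at 2.40 log2 units. In saline tumor 1 Cav2 and Met were raised with Cav1 between them at 2.13, and in saline tumor 3 the stretch held Cftr and Cttnbp2.

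Mdfic, an inhibitor of MyoD family factors that lies before Tes, was at 52.4, 2969.8 and 92.7 CPM in saline tumors 1 to 3, 2239, 76.5 and 514 CPM in TLZ tumors 1 to 3, and 85.3, 41.5 and 1301 CPM in NanoTLZ tumors 1 to 3. It was high in 4 of the 7 tumors with high Met. Lsm8, an RNA-binding subunit of the spliceosome that lies after Cttnbp2, was at 21.4, 54.9 and 86.9 CPM in saline tumors 1 to 3, 1616, 33.1 and 580.4 CPM in TLZ tumors 1 to 3, and 1252, 29.5 and 1089.7 CPM in NanoTLZ tumors 1 to 3. It was high in TLZ tumors 1 and 3 and NanoTLZ tumors 1 and 3. Tfec reached 16 CPM at most and Foxp2 2.89 CPM at most. Foxp2 met the 8-fold rule in 4 tumors and Tfec in 1, both at low levels. Mdfic, Lsm8, Tfec and Foxp2 were the other tested protein-coding genes between the 10 genes or within 2 Mb of them.

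**Figure D2:**
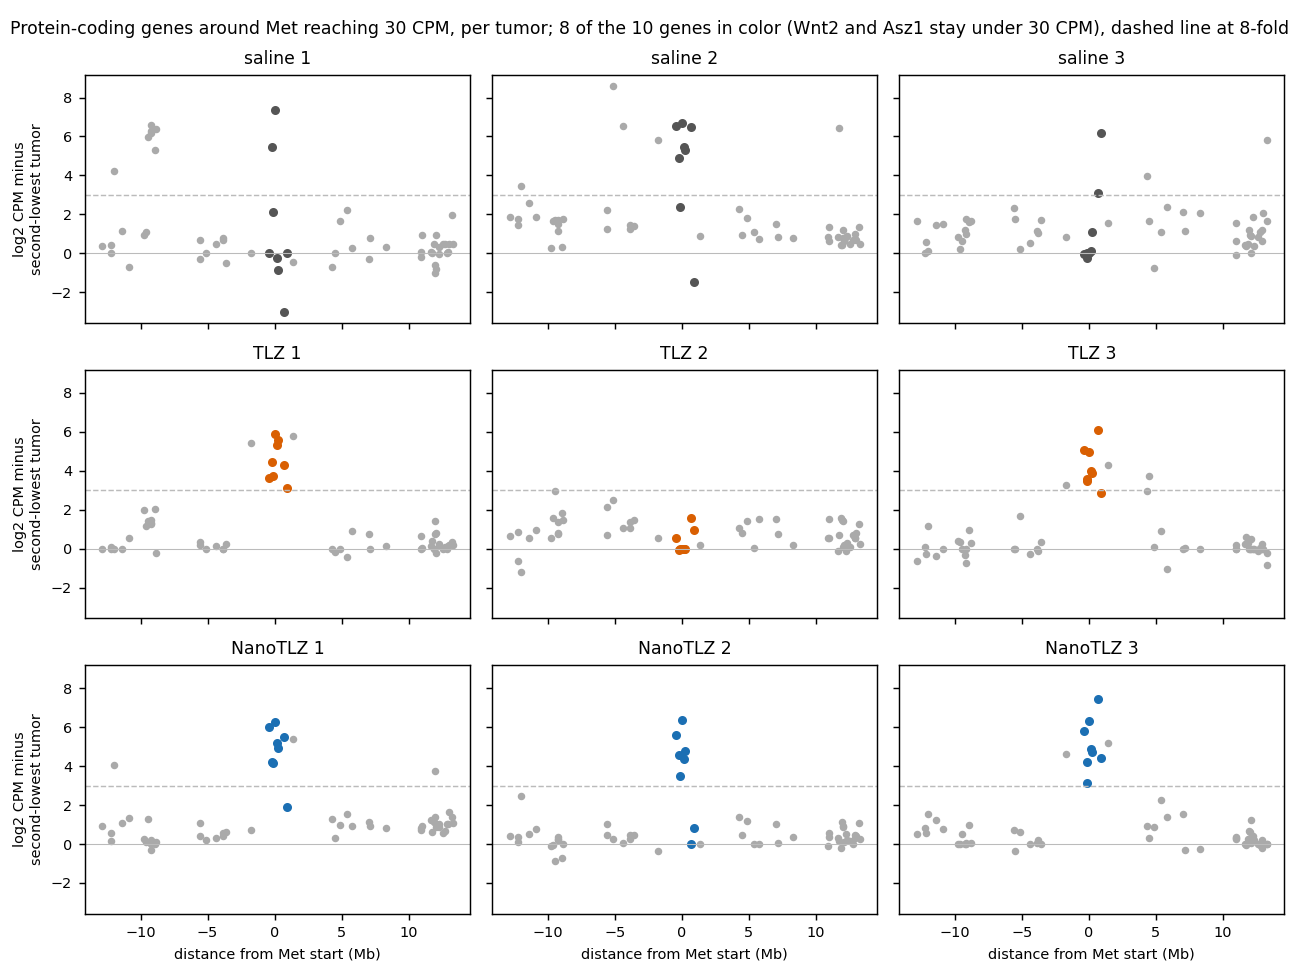
Log2 CPM minus the second-lowest tumor of the same gene, against distance from the Met start in Mb, 1 panel per tumor and 1 point per protein-coding gene reaching 30 CPM, with 8 of the 10 genes in the color of their group (Wnt2 and Asz1 stay under 30 CPM), other genes in light gray and a dashed line at 8-fold. In TLZ tumor 2 every colored point lies below the line, and in saline tumor 3 all but Cftr and Cttnbp2 do. Light gray points left of Met lie above the line in tumors 1 and 2 of saline and tumors 1 and 3 of TLZ and of NanoTLZ.

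Other stretches of the chromosome, and the single gene Impdh1, were raised in 1 tumor each, named here after their values were seen. In saline tumor 1, Mios was at 1404 CPM, Rpa3 at 993 CPM and Umad1 at 580.1 CPM, in a stretch of 6 genes from Col28a1 to Ica1. In the other 8 tumors Mios was at most 37.5 CPM. In saline tumor 2, Tmem106b was at 5499.9 CPM and at most 123 CPM in the other 8. Thsd7a, in the same stretch, was at 439.8 CPM and at most 6.34 CPM in the other 8. Impdh1, whose neighbors Rbm28 and Calu were not raised, was at 3316 CPM in saline tumor 2 and at most 62.3 CPM. Between Tmem106b and Mdfic, Tmem168 and Bmt2 were not raised in any tumor. In TLZ tumor 2, a stretch of 22 genes ran from Plekha5 to Itpr2, at chr6:140424054-146502223. DNA copy number was not analysed here.

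**Figure D3:**
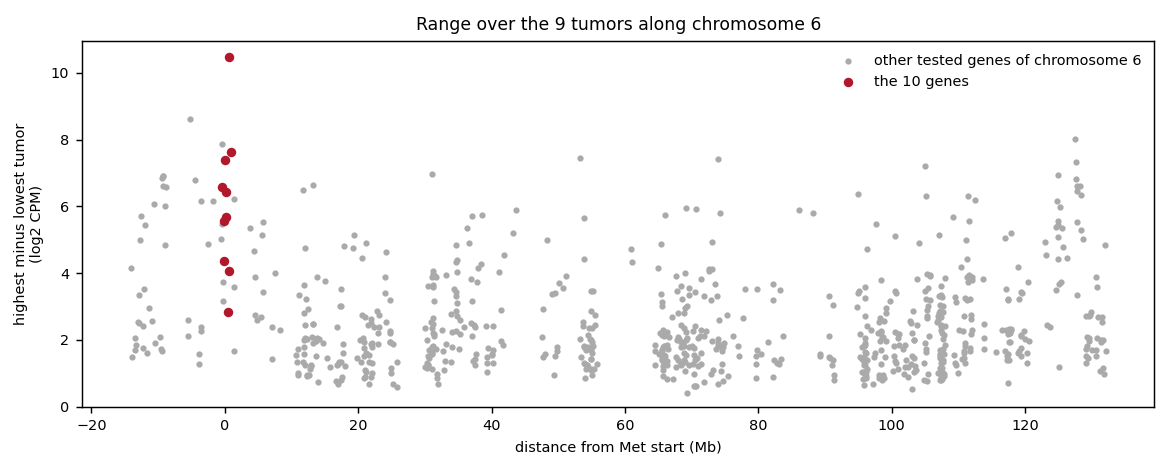
Highest minus lowest tumor in log2 CPM for every tested gene of chromosome 6, against distance from the Met start in Mb, with the 10 genes in red.

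Along chromosome 6, the 5 Mb bin that holds the 10 genes had 19 tested genes with a median range of 5.55 log2 units, and 12 of them had ranges over 5 log2 units. Medians of the other 29 bins lay between 1.49 and 5.55, the latter in a bin of 2 tested genes, with 0 to 9 genes over 5 log2 units. The bin at chr6:140000001-145000000 had 20 tested genes, a median range of 4.84 log2 units and 9 genes over 5 log2 units. In the bin of the 10 genes 9 of the 19 were raised in 5 or more tumors. The median deviation of the 10 genes from the median tumor was -1.92, 0.60 and -3.51 log2 units in saline tumors 1 to 3, 0.66, -3.72 and 0.00 in TLZ tumors 1 to 3, and 0.53, 0.02 and 0.28 in NanoTLZ tumors 1 to 3. Over the 27 other tested genes within 5 Mb it lay between -0.28 and 0.81, and over all tested genes it was 0.00 in every tumor.

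Gm4876, annotated antisense to Tes and named after its values were seen, was at 1.6, 55 and 1.47 CPM in saline tumors 1 to 3, 15.1, 1.8 and 29.6 CPM in TLZ tumors 1 to 3, and 70, 29.7 and 55.4 CPM in NanoTLZ tumors 1 to 3. Its high tumors were those of Tes. The strand setting of the counting is not given in the sources used here, so reads from Tes and Gm4876 cannot be told apart.

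None of the 9 tested genes other than Cav2 was called between groups. Against saline, the edgeR quasi-likelihood test with Benjamini-Hochberg adjustment over all tested genes called 0 of these 9 for TLZ beside 0% of all genes, 0 of 9 for NanoTLZ beside 0.00632%, and 0 of 9 for both treatments together beside 0.019%. Between NanoTLZ and TLZ it called 0 of 9 beside 0%. At an unadjusted p under 0.05 it was also 0 of 9 in each, beside 10.4% of all tested genes for TLZ against saline, 8.99% for NanoTLZ against saline, 13.1% for both treatments and 1.68% for NanoTLZ against TLZ, and limma-voom called 0 of the 9 and DESeq2 0 of 8 in each, with no p from DESeq2 for Cttnbp2. The comparisons with saline share the saline tumors.

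Met differed by log2 -1.56 (SE 1.41) for TLZ against saline, -0.16 (SE 1.38) for NanoTLZ against saline and 1.40 (SE 1.40) for NanoTLZ against TLZ. The edgeR quasi-likelihood test with Benjamini-Hochberg adjustment gave adjusted p = 0.712, 0.98 and 1. Each SE was above 1 log2 unit. The sign for NanoTLZ against saline turned without saline tumor 1, at 0.64, and under limma-voom, at 1.62. For both treatments against saline it was -0.86 (SE 1.16), and under limma-voom the sign turned, at 0.26. Cav1 had the smallest adjusted p of the 9, at 1.58 (SE 0.79) for both treatments against saline (edgeR quasi-likelihood test, Benjamini-Hochberg adjusted p = 0.418), higher than every saline tumor in 5 of 6 treated tumors.

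For Tes the log2 difference of both treatments against saline was -0.10 (SE 1.29) and it was 4.92 without saline tumor 2 and 0.17 without TLZ tumor 2. For Cttnbp2 it was -1.78 (SE 1.33) and without saline tumor 3 it was 3.77. Saline and NanoTLZ values did not overlap for 1 of the 10 genes, Cav1, beside 15.9% of all tested genes. TLZ and NanoTLZ did not overlap for 2, Tes and Met, beside 7.61%, and saline and TLZ for 0, beside 11.2%.

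Over all genes, edgeR called 0 for TLZ (1643 at an unadjusted p under 0.05), 1 for NanoTLZ (1423 unadjusted) and 0 between the formulations (266 unadjusted). DESeq2 on all 9 tumors called 194, 109 and 3, and limma-voom 0, 1 and 0. The gene called for NanoTLZ, named after its values were seen because the count was small, was the cartilage collagen gene Col2a1, at 9.38, 14.2 and 21.3 CPM in saline tumors 1 to 3, 191, 176 and 141 CPM in TLZ tumors 1 to 3, and 298, 628 and 799 CPM in NanoTLZ tumors 1 to 3. Every treated tumor lay above every saline tumor, but without saline tumor 2, TLZ tumor 3 or NanoTLZ tumor 2 edgeR called 0 genes for NanoTLZ, and without saline tumor 1 it called 3. For both treatments against saline edgeR called 3 genes, Col2a1 higher and the skeletal muscle genes Myh4 and Myl1 lower, where DESeq2 called 276 and limma-voom 1 (2072 at an unadjusted p under 0.05 in edgeR). Without saline tumor 2, NanoTLZ tumor 2, NanoTLZ tumor 3 or any 1 TLZ tumor edgeR called 0 genes for both treatments, and without NanoTLZ tumor 1 it called 1, a higher gene.

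Of the 22 genes listed for HGF and MET signaling, 21 were tested and 0 were called in either direction by edgeR, DESeq2 or limma-voom. At an unadjusted p under 0.05 edgeR gave 0, 1, 0 and 0 of them for TLZ against saline, NanoTLZ against saline, NanoTLZ against TLZ and both treatments against saline, beside 10.4%, 8.99%, 1.68% and 13.1% of all tested genes. Their median log2 difference for both treatments against saline was -0.06, beside -0.06 over all tested genes. The ligand Hgf was at 2.12, 5.77 and 0.872 CPM in saline tumors 1 to 3, 3.54, 1.2 and 1.14 CPM in TLZ tumors 1 to 3, and 4.67, 3.55 and 3.73 CPM in NanoTLZ tumors 1 to 3. It was low in saline tumor 3 and TLZ tumor 2 but also in TLZ tumor 3, where Met was high. St14, the membrane protease matriptase, which can activate the HGF precursor, was at 719.9, 415 and 201 CPM in saline tumors 1 to 3, 336, 313 and 447 CPM in TLZ tumors 1 to 3, and 313, 316 and 714 CPM in NanoTLZ tumors 1 to 3. None of the 21 was raised in 5 or more tumors, and the most abundant was Stat3.

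Of 11 genes for caveola proteins other than Cav1 and Cav2, 10 were tested, all but Cav3, and 0 called by any of the 3 tools (3, 0, 0 and 1 at an unadjusted p under 0.05 in edgeR, comparisons in the same order, beside 10.4%, 8.99%, 1.68% and 13.1% of all tested genes), with a median of 0.36 for both treatments against saline. Cavin1, which coats caveolae together with caveolins, was at 132, 183 and 89.8 CPM in saline tumors 1 to 3, 325, 131 and 554 CPM in TLZ tumors 1 to 3, and 182, 164 and 166 CPM in NanoTLZ tumors 1 to 3. TLZ tumor 3 was highest, and the groups overlapped. Of 13 genes for actin capping and focal adhesion, 12 were tested and 0 called by the 3 tools (1, 0, 0 and 1 unadjusted), with a median of -0.01. Capzb, the partner subunit of Capza2, was at 386, 377 and 145 CPM in saline tumors 1 to 3, 438, 319.6 and 315 CPM in TLZ tumors 1 to 3, and 272, 240.3 and 335 CPM in NanoTLZ tumors 1 to 3. It did not follow Capza2, being at 386 CPM in saline tumor 1. Of 9 Wnt target genes 0 were called by the 3 tools (0, 0, 0 and 0 unadjusted, median -0.34), and of the 2 tested of 8 germline piRNA genes 0 (0, 1, 0 and 0 unadjusted, median -0.88).

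**Figure D4:**
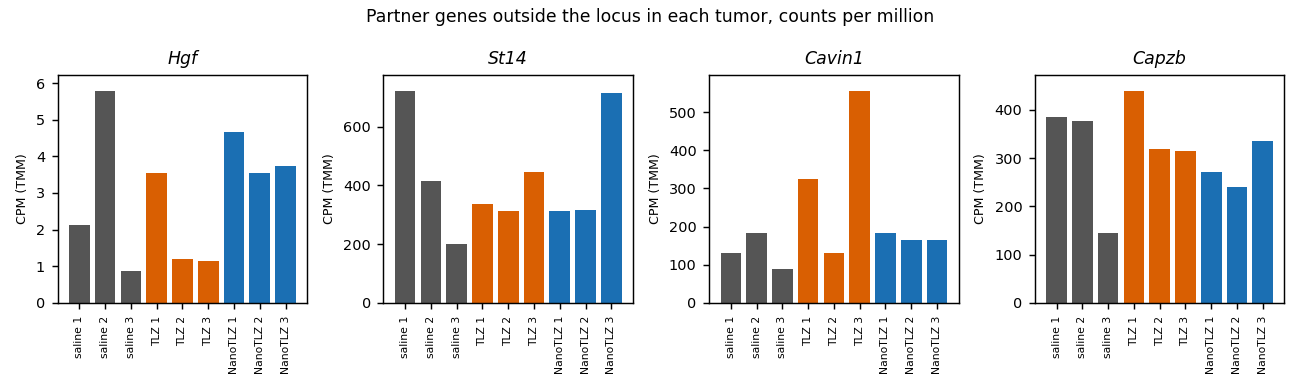
Level of 4 partner genes that lie outside the locus, in CPM on linear axes that start at 0, 1 bar per tumor, gray for saline, orange for TLZ and blue for NanoTLZ. The highest tumor is 5.08-fold above the second-lowest for Hgf, 2.3-fold for St14, 4.21-fold for Cavin1 and 1.82-fold for Capzb.

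The 10 genes outside the list most like Cav2, by root-mean-square difference in centered log2 CPM over the 9 tumors, were Efhd1, Wfdc3, Igf2bp2, Trim15, Il10, Clec2e, Gimap8, Cxcl17, Gm29186, Kng2, at 0.52 to 0.83 log2 units beside a median of 2.01 over tested genes. The 10 most like Met were Igf2bp2, Il24, Kng2, Efhd1, Gm4951, Kcnf1, Hp, Iigp1, Smoc1, Sectm1a, at 0.80 to 1.22 beside a median of 2.73. Efhd1, Igf2bp2 and Kng2 were in both. Igf2bp2, an RNA-binding protein gene on chromosome 16, was at 144, 61.9 and 0.826 CPM in saline tumors 1 to 3, 100.1, 3.83 and 38.4 CPM in TLZ tumors 1 to 3, and 63.4, 48 and 94 CPM in NanoTLZ tumors 1 to 3. Like Met, it was low in saline tumor 3 and TLZ tumor 2. By rank correlation in place of this difference, 1 of the 10 for Cav2 and 0 of the 10 for Met were found again.

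Cell type markers differed among the tumors as well. Summed basal markers were 1423, 1009 and 3663 CPM in saline tumors 1 to 3, 3102, 315 and 1221 CPM in TLZ tumors 1 to 3, and 1316, 1349.7 and 780.2 CPM in NanoTLZ tumors 1 to 3, with Krt14 most abundant, and Krt5 alone was at 1849 CPM in saline tumor 3 and at most 72.9 CPM in the other 8. Krt17, Trp63 and Oxtr were also highest in saline tumor 3. The other basal markers, Krt14, Acta2, Myh11, Cnn1 and Mylk, were not, and Cnn1 was lowest there, at 1.38 CPM. Summed mesenchymal markers were 3215, 2737 and 1428 CPM in saline tumors 1 to 3, 3189, 10539 and 3462 CPM in TLZ tumors 1 to 3, and 2911, 3176 and 2321 CPM in NanoTLZ tumors 1 to 3, with Fn1 most abundant. TLZ tumor 2 was highest, where Fn1 was at 9705 CPM. Twist1 was also highest there, at 117 CPM, and the other 6 tested markers, Vim, Zeb1, Zeb2, Snai1, Snai2 and Cdh2, were not. Summed luminal markers were 8514, 5228 and 4868 CPM in saline tumors 1 to 3, 5362, 7787 and 6002 CPM in TLZ tumors 1 to 3, and 5460.4, 5338 and 3940.2 CPM in NanoTLZ tumors 1 to 3, with Krt8 most abundant. EdgeR and limma-voom called 0 markers of these 3 lists in the 4 comparisons, and DESeq2 called the luminal markers Kit for TLZ and Kit and Elf5 for both treatments. At an unadjusted p under 0.05 edgeR gave 3, 2, 1 and 2 of 10 luminal, 0, 3, 0 and 2 of 9 basal and 2, 2, 0 and 1 of 8 mesenchymal markers in the 4 comparisons, beside 10.4%, 8.99%, 1.68% and 13.1% of all tested genes. No marker of these lists was at 0 counts in any tumor. Their part in the levels of the 10 genes was not tested.

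Skeletal muscle markers, with Acta1 most abundant, summed to 32.4, 193 and 699 CPM in saline tumors 1 to 3, 34.7, 5.19 and 14.6 CPM in TLZ tumors 1 to 3, and 20.2, 13.1 and 11.4 CPM in NanoTLZ tumors 1 to 3, and 2 of the 8 tested, Myh4 and Myl1, were lower in both treatments against saline (edgeR quasi-likelihood test, Benjamini-Hochberg adjusted p = 0.0207). Neither was called with any 1 treated tumor or saline tumor 2 left out. DESeq2 called 6 of the list in each comparison with saline and limma-voom 0. At an unadjusted p under 0.05 edgeR gave 7, 6, 0 and 6 of the 8 in the 4 comparisons, beside 10.4%, 8.99%, 1.68% and 13.1% of all tested genes. Acta1 and Myh4 were at 0 counts in NanoTLZ tumor 2, Ckm there and in TLZ tumor 1, Myl1 in TLZ tumors 2 and 3, and Tnnc2, not tested, in 8 tumors. Fibroblast markers (Col1a1 most abundant) summed to 2095, 1517 and 1508 CPM in saline tumors 1 to 3, 6137, 1022 and 2561 CPM in TLZ tumors 1 to 3, and 3166, 2618 and 1750.4 CPM in NanoTLZ tumors 1 to 3. Leukocyte markers (Csf1r) summed to 252, 551 and 135 CPM in saline tumors 1 to 3, 553, 207 and 429 CPM in TLZ tumors 1 to 3, and 579, 492 and 706 CPM in NanoTLZ tumors 1 to 3. In the fibroblast and leukocyte lists 0 genes were called by the 3 tools, with 1, 2, 0 and 2 of 8 and 0, 0, 0 and 0 of 7 at an unadjusted p under 0.05 in edgeR, beside the same shares of all tested genes. The part of the 3 lists in the levels of the 10 genes was not tested.

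Endothelial markers (Plvap most abundant) summed to 209.6, 307 and 135 CPM in saline tumors 1 to 3, 358, 202 and 164 CPM in TLZ tumors 1 to 3, and 301, 396 and 298 CPM in NanoTLZ tumors 1 to 3. Adipocyte markers (Lpl) summed to 22, 30.7 and 54.5 CPM in saline tumors 1 to 3, 55, 12.7 and 35.3 CPM in TLZ tumors 1 to 3, and 148, 40.5 and 23.6 CPM in NanoTLZ tumors 1 to 3. Proliferation genes (Mki67) summed to 1172, 675 and 2197 CPM in saline tumors 1 to 3, 356, 469 and 717 CPM in TLZ tumors 1 to 3, and 578, 489 and 539 CPM in NanoTLZ tumors 1 to 3, highest in saline tumor 3. Of this list Top2a and Bub1 were highest in saline tumor 1 instead, at 429 and 36 CPM, beside 325 and 32.7 CPM in saline tumor 3. EdgeR and limma-voom called 0 genes of these 3 lists, and DESeq2 called Top2a for TLZ and Top2a and Mki67 for both treatments, of the proliferation list. At an unadjusted p under 0.05 edgeR gave 0, 1, 0 and 1 of 11 endothelial, 0, 0, 1 and 0 of 3 tested adipocyte and 7, 8, 1 and 8 of 10 proliferation genes, beside 10.4%, 8.99%, 1.68% and 13.1% of all tested genes. The adipocyte marker Lep was at 0 counts in 5 tumors and Adipoq in 1. The part of these lists in the levels of the 10 genes was not tested. The drug target Parp1 was at 172, 135 and 156 CPM in saline tumors 1 to 3, 86.1, 52.3 and 115 CPM in TLZ tumors 1 to 3, and 121, 91.7 and 127 CPM in NanoTLZ tumors 1 to 3. Brca1 was at 32.6, 29.6 and 42.7 CPM in saline tumors 1 to 3, 11.8, 9.46 and 31.5 CPM in TLZ tumors 1 to 3, and 18.4, 18.2 and 19.8 CPM in NanoTLZ tumors 1 to 3, and Trp53 at 23.4, 34.6 and 45.6 CPM in saline tumors 1 to 3, 33, 38.9 and 31.1 CPM in TLZ tumors 1 to 3, and 108, 29.4 and 31.3 CPM in NanoTLZ tumors 1 to 3. Gene-level counts do not separate the recombined alleles.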

How the data were processed

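The authors deposited raw read counts per Ensembl gene, 1 column per tumor; their processing notes name TopHat2, DESeq2 and mm10, and the counting program, annotation and strand setting are not given in the sources used here. Symbols and positions came from GENCODE M21, with 34490 of 35275 IDs matched. Counts were tested with edgeR 4.0.16 (TMM, filterByExpr with a minimum count of 10 and total of 15, quasi-likelihood F-test, 1 coefficient per group, all 9 tumors, Benjamini-Hochberg over 15821 genes, call at 0.05), in R 4.3.3 and Python 3.11.15, after a check on simulated data. DESeq2 1.42.0, limma 3.58.1 (voom), other normalizations, filters and leaving out each tumor were alternatives. Groups came from the labels. Log2 CPM used a prior count of 2. The members and lists were chosen with earlier results of these data known. Named genes were the 10 genes, the 10 most like Cav2 and like Met, tested protein-coding genes within 2 Mb, list genes with a call or needed to describe a list, Parp1, Brca1 and Trp53; others are said to be chosen after their values were seen. Some results are not reported here.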

Additional observations from a re-analysis of the deposited data

Results flagged for a closer look

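Among the 6 treated tumors, TLZ tumor 2 lay far below the others for 4 of the 9 genes other than Cav2. Its gap to the nearest tumor, as a share of the whole range in log2 CPM, was 0.758 for Cav1, 0.773 for Met, 0.749 for Capza2 and 0.698 for St7 and above Dixon's 95% limit for 6 samples in each. Over all tested genes TLZ tumor 2 was lowest and over this limit in 2.28%, and any 1 of the 6 tumors was over it, low or high, in 8.44%. For Tes the share was 0.561. For Cav2 it was 0.773, a description with no test, because that value belongs to the spread that chose the list. For a gene chosen without regard to its values, chance gives such a gap in about 1 in 20 groups. These 4 genes are neighbors of Cav2 and not independent of it or of one another. Cav2 was lowest in this same tumor, so for its neighbors the limit is a description and not a test. The 6 tumors pool both formulations and leave out saline tumor 3, which was also low, with Met at 86.5 CPM there and 86.6 CPM in TLZ tumor 2.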

How the results depend on the processing

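No paired analysis was possible because the labels give no replicate numbers that the groups share. Counts of called genes (edgeR: 0 for TLZ, 1 for NanoTLZ, 0 between formulations, 3 for both treatments) were 194, 109, 3 and 276 with DESeq2 on all 9 tumors and 92, 171 and 21 with DESeq2 on the groups compared only. Without a filter on low counts edgeR called 5, 6 and 33 for TLZ, NanoTLZ and both treatments. EdgeR on the groups compared only called 0 for NanoTLZ. For both treatments limma-voom called 1 and edgeR on genes with 10 or more counts in each tumor called 1. Leaving out 1 tumor gave 0 to 3 for NanoTLZ and 0 to 18 for both treatments, in fits where that group kept 2 tumors. For NanoTLZ it was 3 without saline tumor 1 and 0 without saline tumor 2, TLZ tumor 3 or NanoTLZ tumor 2. For both treatments it was 18 without saline tumor 1, 1 without NanoTLZ tumor 1, 3 without saline tumor 3 and 0 without any other. In all of these settings 0 of the genes other than Cav2 that were tested there were called, 9 in most. Asz1, Cftr and Cttnbp2 were not tested at 10 or more counts in each tumor, nor Asz1 for NanoTLZ against saline with edgeR on the groups compared only. DESeq2 gave no p for Cttnbp2 on all 9 tumors, and on the groups compared only none for Cttnbp2 for TLZ or for Cttnbp2, Tes and St7 for NanoTLZ against saline. For TLZ against saline, limma-voom turned the sign of Tes 0.93, Cftr 1.80, Cttnbp2 0.87 (log2), and with 1 tumor left out the sign turned in at least 1 fit over ranges of Tes -2.23 to 4.01, Capza2 -0.86 to 4.29, St7 -0.82 to 4.00, Wnt2 -0.41 to 0.61, Cftr -1.54 to 2.82, Cttnbp2 -2.67 to 3.45. For NanoTLZ against saline, limma-voom turned the sign of Met 1.62, Cttnbp2 0.94 (log2), and with 1 tumor left out the sign turned in at least 1 fit over ranges of Met -0.71 to 0.64, Wnt2 -0.06 to 1.01, Asz1 -1.54 to 6.63, Cftr -0.45 to 4.12, Cttnbp2 -3.19 to 4.09. For NanoTLZ against TLZ, with 1 tumor left out the sign turned in at least 1 fit over ranges of Cav1 -0.02 to 0.95, St7 -0.13 to 1.85, Wnt2 -0.19 to 0.95, Asz1 -2.38 to 0.25, Cftr -0.36 to 2.76, Cttnbp2 -1.12 to 1.14. For both treatments against saline, limma-voom turned the sign of Tes 2.28, Met 0.26, Cttnbp2 0.90 (log2), and with 1 tumor left out the sign turned in at least 1 fit over ranges of Tes -0.70 to 4.92, Wnt2 -0.08 to 0.81, Asz1 -0.35 to 6.80, Cftr -0.27 to 3.47, Cttnbp2 -2.63 to 3.77. With the mean tumor in place of the median tumor as reference, the median deviation of the 10 genes was -2.03, 1.83 and -2.45 in saline tumors 1 to 3, 1.01, -2.81 and 0.77 in TLZ tumors 1 to 3, and 1.53, 1.03 and 1.56 in NanoTLZ tumors 1 to 3. With the median tumor as reference and 1 other tumor left out, it ranged over -2.55 to -1.35, 0.54 to 0.82 and -3.61 to -3.11 in saline tumors 1 to 3; 0.55 to 0.85, -3.85 to -3.28 and -0.14 to 0.38 in TLZ tumors 1 to 3; 0.39 to 0.85, -0.03 to 0.21 and 0.14 to 0.57 in NanoTLZ tumors 1 to 3. The 50 pairs of gene and tumor at 8-fold, a rule whose alternatives were also chosen after seeing the data, became 27 with the third-lowest tumor as reference and 29 to 44 with 1 tumor left out, lowest without saline tumor 3 or TLZ tumor 2. They were 54 at 4-fold and 37 at 16-fold. The cause of these changes was not tested. Counts limited Asz1, Wnt2, Cttnbp2 and, in saline tumor 1, Cftr.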
